A study of Mus musculus with 40 samples.

Results

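Methylation was compared between the 19 animals born from dams fed a high-fat (HF) diet and the 20 animals born from dams fed a low-fat (LF) diet, over both diets that the offspring received after weaning. These are 39 of the 40 animals of the series, since HL replicate 1 was not analysed here. All were C57BL/6J males killed at 9 weeks, and DNA came from the liver. Group names give the diet of the dam before that of the offspring: 10 LL animals (LF dam, LF diet after weaning), 10 LH (LF dam, HF diet), 9 HL (HF dam, LF diet) and 10 HH (HF dam, HF diet). Dams were on their diet from before mating until weaning, so pregnancy and lactation cannot be told apart, and each offspring of an HF dam was suckled by an HF dam. Bisulfite, which converts unmethylated cytosine and leaves methylated cytosine as it is, was followed by PCR of chosen loci and sequencing. Methylation is 100 times methylated reads over all reads at a CpG, and 253 of 300 CpGs, at 19 loci, had a value in at least 36 animals. No gene expression is measured here, so the labelled tissue was not checked against liver markers.

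Methylation of cytosines in CpG dinucleotides near a gene start usually goes with a silent promoter, and most CpG-rich promoters in the liver are kept nearly free of it. Regions that carry an imprint from the germ line are an exception: the copy from one parent is methylated, so a bulk tissue reads close to equal amounts of methylated and unmethylated copies. Not every CpG of an imprinted gene lies in such a region. The nutrition of the mother is studied because methylation laid down in the embryo can persist through cell division. The loci here belong to imprinted genes, leptin and its receptor, insulin signalling and gluconeogenesis, sterol synthesis, nuclear receptors and inflammation.

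Median reads per CpG ranged from 4010 to 17282 in animals born from HF fed dams (median 7290.5) and from 4335 to 18485.5 in animals born from LF fed dams (median 6824), and the difference was well within the spread (permutation test within post-weaning diet, 2-sided, p = 0.961). Animal numbers in the labels fall into 6 runs of close numbers from LF dams and 6 from HF dams. A run was also ended wherever maternal diet changed, so by definition no run holds both maternal diets. The labels give neither litter nor cage, so litter and maternal diet cannot be told apart, and a p-value over animals treats littermates as independent. Exact permutation tests over run means are therefore given as well for the loci and CpGs described in full. A run is not shown to be a litter. The males of each cage were split over both post-weaning diets, while some runs hold only a single post-weaning diet. Littermates may thus fall in different runs, and run means are not shown to be independent.

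The largest differences by maternal diet were at the promoter of Pck1 and the start of Plagl1. Their reference sequence up to the base before the transcript start is shown because all 4 upstream CpGs of Pck1 and all 9 of Plagl1 lay lower in animals born from HF fed dams. Sequences are from the plus strand of NCBIM37, with each CpG in capitals. Pck1 is shown at chr2:172978394-172978548 and Plagl1 at chr10:12810348-12810496.
Pck1_upstream: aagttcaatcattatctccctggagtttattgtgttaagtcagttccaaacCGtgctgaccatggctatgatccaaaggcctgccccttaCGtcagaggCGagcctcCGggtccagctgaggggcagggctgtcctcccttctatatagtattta
Plagl1_upstream: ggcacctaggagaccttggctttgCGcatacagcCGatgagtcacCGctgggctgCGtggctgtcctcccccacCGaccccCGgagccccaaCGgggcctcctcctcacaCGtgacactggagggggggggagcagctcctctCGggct

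The second CpG of Pck1, Pck1_2 (chromosome 2, 172978484, 65 bp before the transcript start), is the site with the largest difference of all 253 CpGs. It lies in the 8 letters TTACGTCA, a form of the cyclic AMP response element. A search of both strands (TTACGTCA and TGACGTAA, which do not overlap another match) found 1 match in the Pck1 amplicon and none in the other amplicons searched, 21 in all without Lepr. Of 32851 mouse promoters of 300 bp in RefSeq (GRCm38.p6), 164 hold it, or 0.499%. The match is a description of the letters and not evidence of a factor at the site.

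In the comparison of means, a linear model of percent methylation with post-weaning diet as covariate was used, and its F test of the maternal term was adjusted over all CpGs or all loci. No CpG passed an adjusted p of 0.05 (0 of 253, 0%), while 30 had an unadjusted p under 0.05, which is 11.9% of the CpGs tested. Of these 30, 25 were lower in animals born from HF fed dams and 5 were higher. Over all 253 CpGs the directions were even, with 127 higher and 126 lower. Among the 89 CpGs at a mean of 2% or more, 66 were lower and 23 higher, with a median difference of -0.81 points. Among the 164 CpGs under 2%, 104 were higher and 60 lower, with a median difference of 0.0416 points. CpGs of one amplicon share reads, so these counts hold far fewer independent sites than CpGs. By locus, 2 were higher and 7 lower at 2% or more, and 6 were higher and 4 lower under 2%. Ebp, whose difference rests on 1 animal, is among those higher under 2%. At the level of loci, 0 of 19 passed (0%), and Pck1 and Plagl1, 2 of 19 (10.5%), had an unadjusted p under 0.05. Differences at the loci ran from -5.15 points at Pck1 to 1.77 points at Lep. The number of loci with an unadjusted p under 0.05 was 4 without HL replicate 2, LH replicate 7 or HH replicate 8.

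**Figure D1:**
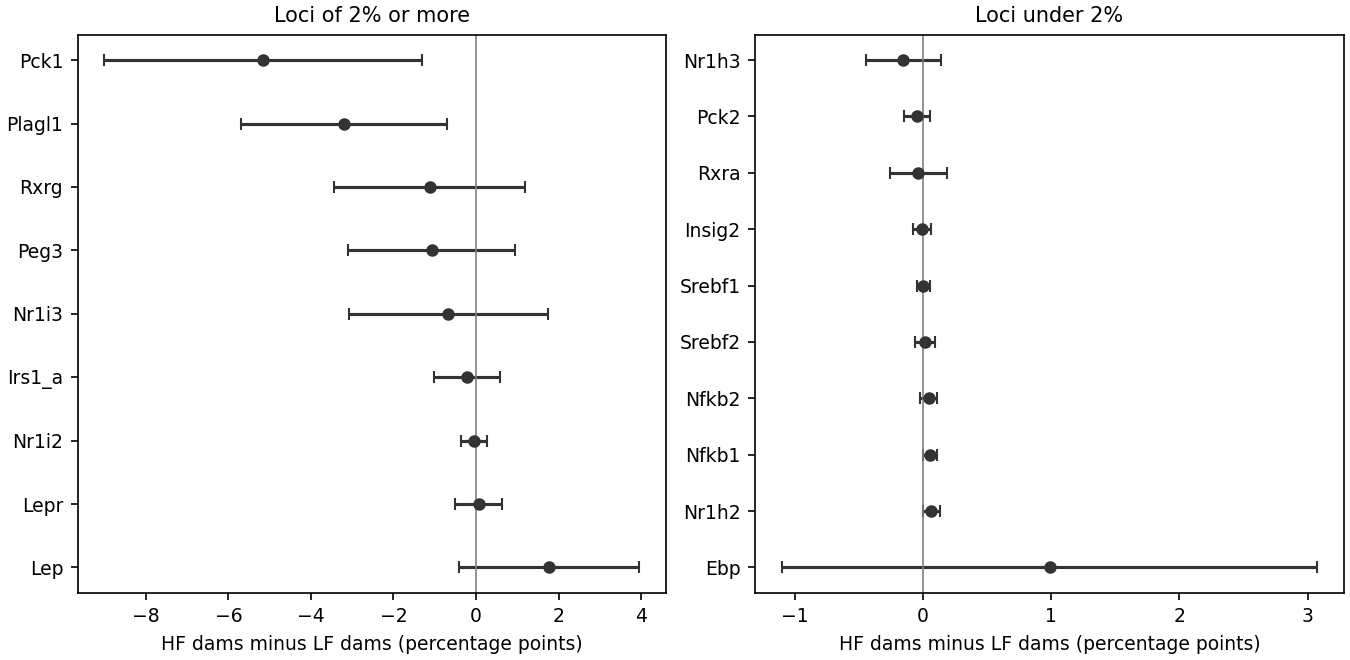
Difference in mean methylation between animals born from HF and LF fed dams (percentage points, post-weaning diet as covariate) for the 19 tested loci, as points with 95% confidence intervals, on separate scales for loci of 2% or more and under 2%. Only the intervals of Pck1 (-9.00 to -1.30) and Plagl1 (-5.70 to -0.71) leave out 0, and the wide interval of Ebp rests on 1 animal.

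Pck1 encodes the cytosolic phosphoenolpyruvate carboxykinase, which controls the entry into gluconeogenesis in the liver. Its 5 CpGs (chromosome 2, 172978445 to 172978561, ENSMUSG00000027513.5) lie upstream of the gene, apart from Pck1_5 in the 5′ UTR. Methylation in animals born from HF fed dams ranged from 17.6% to 29.3% with a median of 22.1%, and in animals born from LF fed dams from 20.05% to 46.7% with a median of 25.5%. The ranges overlap below 29.3%. Of the 20 animals born from LF fed dams, 7 lay above the highest animal born from an HF fed dam, and 2 of the 19 animals born from HF fed dams lay below the lowest animal born from an LF fed dam.

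The 7 animals were LL replicate 4 at 46.7%, LH replicate 3 at 42.5%, LL replicate 1 at 37.5%, LH replicate 6 at 35.5%, LL replicate 2 at 33.3%, LH replicate 10 at 31.2% and LH replicate 9 at 30.6%. They came from both post-weaning diets, 3 LL and 4 LH, and from 4 of the 6 LF runs. LL replicate 4 and LH replicate 3, the highest animals, share a run. LL replicates 1 and 2 also share a run, as do LH replicates 9 and 10. Counting error is small against these differences: at Pck1_2, LL replicate 4 had 51.7% (Wilson 95% interval 51.3 to 52.2%, 46374 reads) and HL replicate 9 had 18.7% (18.4 to 18.9%, 108224 reads). Such intervals cover counting error only, since PCR reads without molecular identifiers are not independent molecules.

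Mean methylation at Pck1 was 23.1% ± 3.49 (SD, n = 19) in animals born from HF fed dams and 28.2% ± 7.50 (SD, n = 20) in animals born from LF fed dams. The difference was -5.15 points (SE 1.90, 95% confidence interval -9.00 to -1.30, linear model p = 0.0101 by the F test over 39 animals, adjusted p = 0.125). Of the 19 animals born from HF fed dams, 14 lay below the median of the animals born from LF fed dams. The same sign was found after either weaning diet, with HL minus LL at -6.87 points and HH minus LH at -3.53 points, and these did not differ beyond the spread (interaction over 39 animals, linear model p = 0.386, adjusted p = 0.634). All 5 CpGs had an unadjusted p under 0.05, from -3.53 points at Pck1_1 to -5.96 points at Pck1_2 (24.6% against 30.5%, SE 2.16, adjusted p = 0.261 in the linear model).

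The runs of animal numbers give the same order. The 6 run means of HF dams lay between 19.2% and 24.9% and the 6 of LF dams between 24.6% and 32.0%, with an overlap of the highest HF run and the lowest LF runs. The difference of run means was -4.94 points (exact permutation p = 0.00433, where the smallest p the design allows is 0.00216, adjusted p = 0.0823 over the 19 loci). Over all alternatives the adjusted p at Pck1 ranged from 0.0725 to 0.249.

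**Figure D2:**
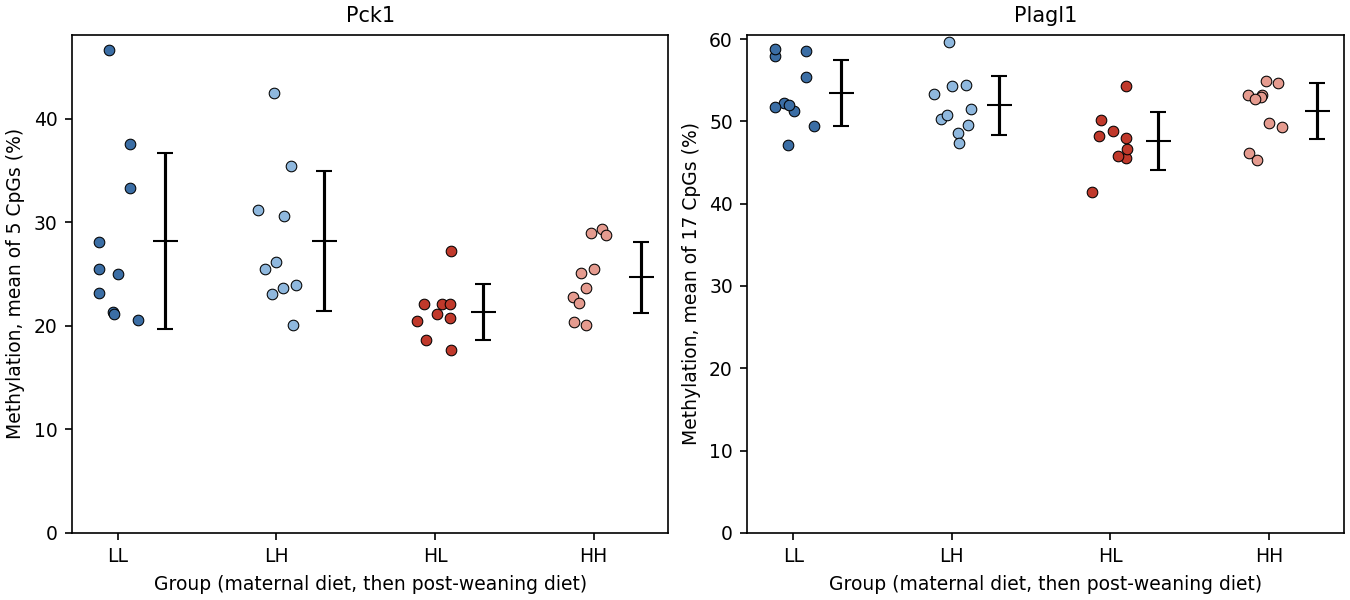
Methylation of each animal at Pck1 (mean of 5 CpGs, left) and Plagl1 (mean of 17 CpGs, right) in percent, by group, with the group mean and SD as bars beside the points. At Pck1 7 points of the LL and LH groups lie above 29.3%, the highest value of HL and HH, while at Plagl1 the HL group lies lowest (mean 47.7%).

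Plagl1 is a maternally imprinted gene that encodes a zinc finger protein and is one of a network of imprinted genes involved in growth. Its 17 CpGs (chromosome 10, 12810372 to 12810570, ENSMUSG00000019817.11) lie upstream of the gene (9 CpGs) or in an exon of a transcript with no coding part there (8 CpGs). Methylation ranged from 41.4% to 54.9% with a median of 49.4% in animals born from HF fed dams, and from 47.1% to 59.6% with a median of 51.9% in animals born from LF fed dams. At the low end 6 animals born from HF fed dams, 4 HL and 2 HH, lay below all animals born from LF fed dams. At the high end 5 animals born from LF fed dams lay above all animals born from HF fed dams.

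The means at Plagl1 were 49.5% ± 3.83 (SD, n = 19) and 52.7% ± 3.80 (SD, n = 20), and the difference was -3.21 points (SE 1.23, 95% confidence interval -5.70 to -0.71, linear model p = 0.0131, adjusted p = 0.125). All 17 CpGs were lower in animals born from HF fed dams, by 2.55 to 3.93 points on average, and 13 had an unadjusted p under 0.05. These CpGs share the same reads. The difference was -5.81 points in offspring weaned on the LF diet (HL minus LL) and -0.74 points in offspring weaned on the HF diet (HH minus LH), with a linear model interaction of p = 0.0373 that did not pass adjustment (adjusted p = 0.634). Interaction counts were near the 5% level, with 17 of 253 CpGs (6.72%) and 1 of 19 loci (5.26%) at an unadjusted p under 0.05 and 0 CpGs (0%) and 0 loci (0%) past the adjusted threshold. Depth was lower than at most loci, with a median of 843 reads per CpG in animals born from HF fed dams and 759 in animals born from LF fed dams. The counting error of 1 CpG, taken over animals and CpGs, was 1.99 and 2.14 points. Over run means the difference was -3.56 points (exact permutation p = 0.0152, adjusted p = 0.144), and over all alternatives the adjusted p ranged from 0.0725 to 0.248.

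**Figure D3:**
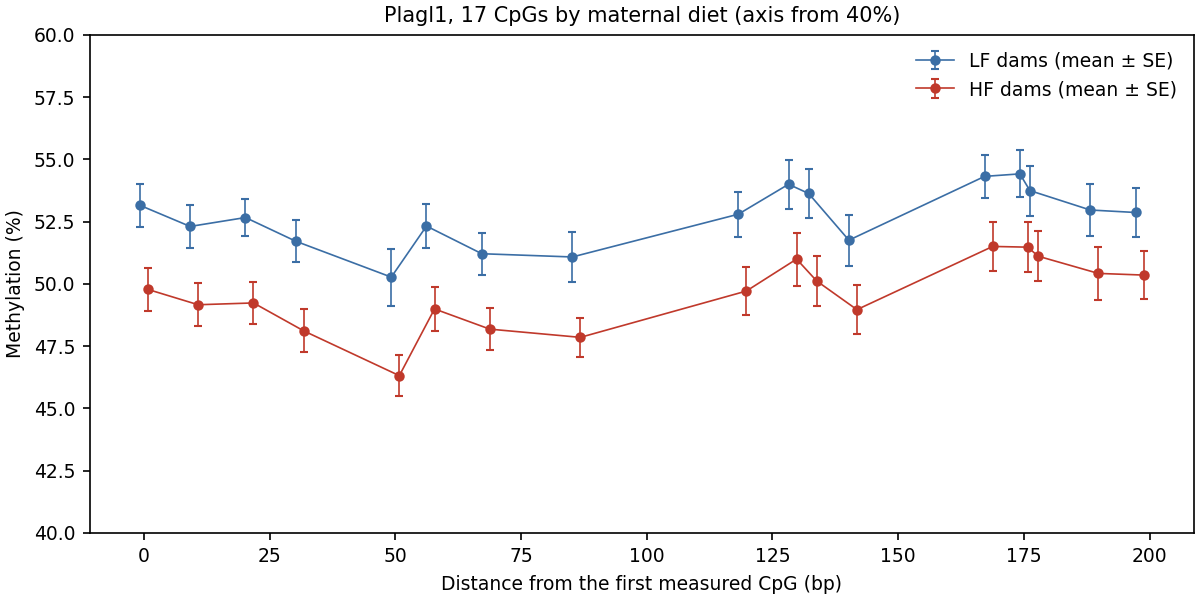
Mean methylation (percent, axis from 40%) with its SE for animals born from LF (blue) and HF (red) fed dams at the 17 CpGs of Plagl1, against the distance in bp from the first CpG. The line for HF dams lies below that for LF dams at every CpG, by 3.44 points at the first CpG and 2.55 points at the last in the linear model.

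Peg3, an imprinted zinc finger gene with its methylated copy from the mother, was measured at 11 CpGs in its 5′ UTR and an intron (chromosome 7, 6682916 to 6683052). Values ranged from 39.2% to 51.3% in animals born from HF fed dams and from 41.8% to 52.8% in animals born from LF fed dams, so the groups overlap over most of their range. The means were 46.3% ± 3.11 (SD, n = 19) and 47.3% ± 3.04 (SD, n = 20), a difference of -1.07 points (SE 0.994, 95% confidence interval -3.09 to 0.94, linear model p = 0.287, adjusted p = 0.625). All 11 CpGs were lower and none had an unadjusted p under 0.05. The difference of run means was -0.81 points (exact permutation p = 0.374). Igf2, an imprinted gene which encodes a fetal growth factor, had too few values to be tested, with 3.55% ± 0.562 (SD, n = 10) in animals born from HF fed dams and 3.48% ± 0.390 (SD, n = 18) in animals born from LF fed dams. Its CpGs measured here were thus far from equal amounts of methylated and unmethylated copies.

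At lowly methylated loci the differences were small in points. Nfkb1, a subunit of the inflammatory factor NF-kappa B, had the third smallest p among loci. Its 19 intronic CpGs (chromosome 3, 135353848 to 135353962) ranged from 0.713% to 0.976% in animals born from HF fed dams and from 0.646% to 0.998% in animals born from LF fed dams. The means were 0.840% ± 0.0638 (SD, n = 19) and 0.785% ± 0.0996 (SD, n = 19), and the difference was 0.0550 points (SE 0.0275, linear model p = 0.0534, adjusted p = 0.259), with 18 of 19 animals born from HF fed dams above the median of the animals born from LF fed dams. Taken over runs, the difference was 0.0627 points (exact permutation p = 0.0303, adjusted p = 0.192). Nr1h2, which encodes liver X receptor beta, a sensor of oxysterols, had 0.720% and 0.655% (difference 0.0651 points, p = 0.0545 in the linear model, adjusted p = 0.259), and 0.0476 points over run means (exact permutation p = 0.219). Bisulfite that fails to convert a cytosine also reads as methylation, at a level not given in the sources used here, and these values lie under 1%.

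The smallest p of any CpG was at Nr1h2_9 (chromosome 7, 51809327, 6 bp before a transcript start), where values ran from 0.157% to 1.23% (median 0.635%) in animals born from HF fed dams and from 0.110% to 0.983% (median 0.291%) in animals born from LF fed dams. Of 19 animals born from HF fed dams, 17 lay above the median of the animals born from LF fed dams, although the ranges overlap. The difference was 0.318 points (SE 0.0859, linear model p = 0.000711, adjusted p = 0.180). Nr1h2_9 alone of all CpGs passed the adjusted threshold when HL replicate 6 or LH replicate 7 was left out (1 of 253 in each case). Nr1h3_8, in the gene of liver X receptor alpha (chromosome 2, 91035138), went the other way: its values ran from 0 to 1.65% (median 0.634%) in animals born from HF fed dams and from 0 to 4.92% (median 1.23%) in animals born from LF fed dams, a difference of -0.79 points (SE 0.270, linear model p = 0.00582, adjusted p = 0.261) at a median of 601 to 648 reads. With runs as the unit, the differences were 0.379 points at Nr1h2_9 and -0.99 points at Nr1h3_8 (exact permutation p = 0.00433 and adjusted p = 0.183 at both). The other CpGs among the 5 smallest p-values were Plagl1_3, Plagl1_4 and Plagl1_1, with differences of -3.49, -3.64 and -3.44 points and an adjusted p = 0.261 in the linear model at each. Over run means their exact permutation p was 0.0108, 0.00216 and 0.0195. The 30 bases around the CpGs outside Pck1 and Plagl1 with the smallest p for the mean are given from NCBIM37, plus strand, with CpGs in capitals, at chr7:51809313-51809342 and chr2:91035124-91035153. The named CpG is the one that starts at base 15.
Nr1h2_9: ctgCGCGtcacttcCGgaagtaggCGgacc
Nr1h3_8: tctaccaaaactgtCGCGtttcccCGcaga

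The remaining loci, by role, had intervals that include 0. Lep, the gene of the satiety hormone leptin, which is made by fat and not by liver, had 67.0% ± 2.87 (SD, n = 19) in animals born from HF fed dams and 65.2% ± 3.89 (SD, n = 20) in animals born from LF fed dams. All 11 of its CpGs were higher in animals born from HF fed dams, and 1 had an unadjusted p under 0.05 (difference at the locus 1.77 points, 95% confidence interval -0.41 to 3.96, linear model p = 0.109, adjusted p = 0.413). Lepr, the leptin receptor, differed by 0.0615 points (interval -0.52 to 0.64). Irs1, which passes the insulin signal from its receptor, differed by -0.21 points at its coding exon (94.4% against 94.6%), and Pck2, the mitochondrial form of Pck1, by -0.0451 points (0.731% against 0.776%).

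Of the sterol genes, Srebf1 and Srebf2, the regulators of fatty acid and cholesterol synthesis, and Insig2, which retains them in the endoplasmic reticulum, differed by 0.00389, 0.0174 and -0.00732 points. Ebp, an X-linked enzyme of cholesterol synthesis, differed by 0.987 points, which rests on HH replicate 1 at 20.8%. All other animals lay between 0.560% and 1.59% at Ebp, and without HH replicate 1 the difference was -0.0390 points. Of the nuclear receptors, Rxrg, a partner of many of the others, differed by -1.13 points and Rxra by -0.0369 points. The xenobiotic sensors Nr1i3 (CAR) and Nr1i2 (PXR) differed by -0.67 and -0.0472 points. Nr1h3 differed by -0.15 points, and Nfkb2, the other NF-kappa B gene, by 0.0441 points. None of these loci had an unadjusted p under 0.05, and the sign of the difference turned under at least 1 alternative at Irs1, Lepr, Srebf1, Insig2, Ebp, Rxra and Nr1i2.

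The spread between animals was compared by the absolute deviation of each animal from the median of its own group, tested in the same linear model, and is described by the SD within groups pooled over both groups of a maternal diet. No CpG passed an adjusted p of 0.05 (0 of 253, 0%), and 13 (5.14%) had an unadjusted p under 0.05, a share near the 5% that the threshold allows. Of these, 11 were narrower in animals born from HF fed dams and 2 were wider. Deviations were smaller in animals born from HF fed dams at 160 CpGs and larger at 93. At CpGs of 2% or more the split was 71 to 18, with a median SD ratio (HF dams over LF dams) of 0.899, and under 2% it was 89 to 75, with a median ratio of 0.994. Since CpGs of one amplicon share reads, these counts too hold far fewer independent sites. By locus the split was 7 to 2 at 2% or more and 7 to 3 under 2%. At the level of loci, 0 of 19 passed (0%), and Pck1 and Pck2, 2 of 19 (10.5%), had an unadjusted p under 0.05. Deviations were smaller in animals born from HF fed dams at 14 loci. The number of CpGs with an unadjusted p under 0.05 was 20 without HL replicate 4 and 6 without LL replicate 4, and the number of loci was 4 without HH replicate 5 and 1 without LL replicate 1, 6 or 10 or LH replicate 3 or 10.

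**Figure D4:**
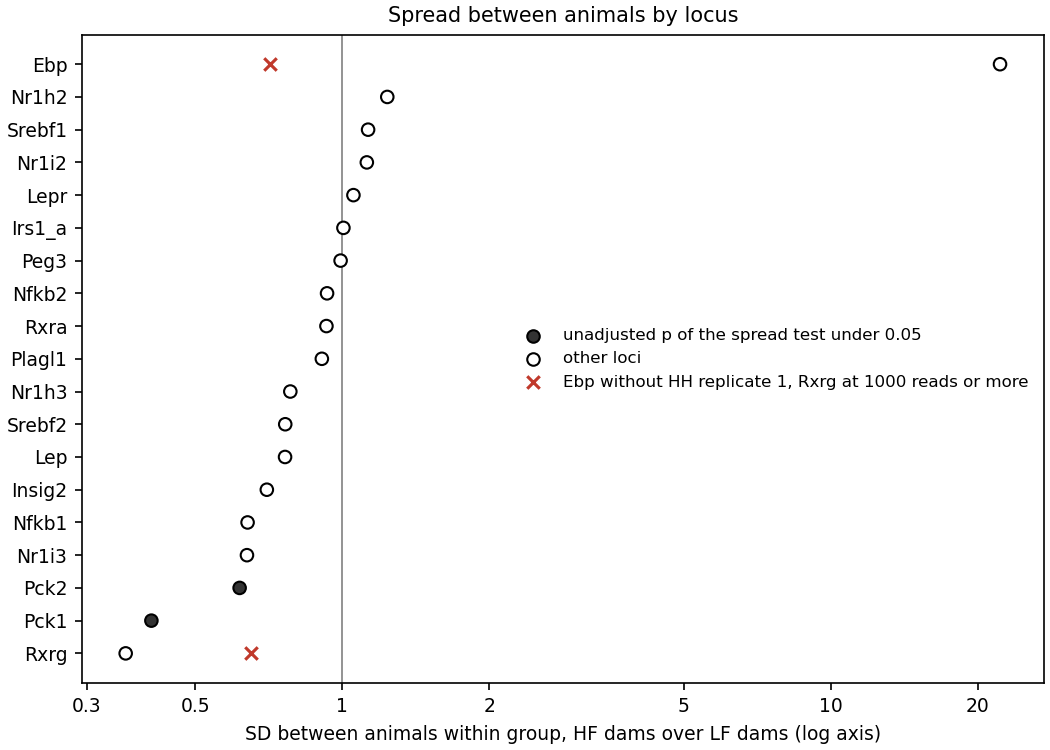
SD between animals within groups, as the ratio of animals born from HF fed dams to animals born from LF fed dams (log axis), for the 19 loci, with filled points for an unadjusted p under 0.05 in the spread test. Ratios run from 0.360 at Rxrg to 22.2 at Ebp, and the red crosses show Ebp without HH replicate 1 (0.709) and Rxrg with values at 1000 reads or more (0.650). The direction at Ebp is not settled, since without LH replicate 5 as well the ratio was 1.27.

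Pck1 had the smallest p for the spread among loci as well as for the mean. Its SD within groups was 3.13 points in animals born from HF fed dams and 7.71 points in animals born from LF fed dams, a ratio of 0.406. By group the SD was 2.70 in HL and 3.47 in HH against 8.52 in LL and 6.80 in LH, so both groups from LF dams were the wider ones. The mean deviation from the group median was 2.35 against 5.48 points, a difference of -3.13 points (95% confidence interval -5.95 to -0.31, linear model p = 0.0305, adjusted p = 0.298). All 5 CpGs were narrower in animals born from HF fed dams, and 4 had an unadjusted p under 0.05, the smallest at Pck1_5 (chromosome 2, 172978561, SD 3.39 against 8.89 points, linear model p = 0.00880, adjusted p = 0.682). The counting error of 1 CpG was 0.218 and 0.247 points in these groups, far under either SD.

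The width in animals born from LF fed dams came from its upper end. Without LL replicate 4 the SD ratio was 0.491, and without both LL replicate 4 and LH replicate 3, which was chosen after seeing the data, it was 0.582 (difference in deviation -1.60 points, linear model p = 0.0944, adjusted p = 0.448), while the difference in means was -3.34 points (p = 0.0262, adjusted p = 0.249). Measured from the group mean in place of the median, the spread at Pck1 passed adjustment (-3.61 points, linear model p = 0.00208, adjusted p = 0.0396), a form of the test that a skewed group affects more. Over run means the p was 0.0628 (exact permutation, adjusted p = 0.596), which is the highest adjusted p of the alternatives.

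Pck2 ranged from 0.478% to 0.909% in animals born from HF fed dams and from 0.477% to 1.12% in animals born from LF fed dams. Its CpGs lie mostly in the 5′ UTR (chromosome 14, 56159093 to 56159211). The SD was 0.113 against 0.184 points (ratio 0.616, difference in deviation -0.0709 points, linear model p = 0.0314, adjusted p = 0.298). The counting error of 1 CpG was 0.113 and 0.114 points, near the SD in animals born from HF fed dams. That SD is of a mean over 10 CpGs, whose own counting error was not estimated. Of its 10 CpGs, 4 were wider in animals born from HF fed dams, and 0 had an unadjusted p under 0.05 for the spread. Over run means the difference in deviation was -0.0454 points (exact permutation p = 0.216, adjusted p = 0.929).

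Rxrg, the gamma member of the retinoid X receptors, had the lowest SD ratio of all loci. Its 10 CpGs (chromosome 1, 169548431 to 169548578) ranged from 9.13% to 14.5% in animals born from HF fed dams (median 11.5%) and from 4.49% to 27.0% in animals born from LF fed dams (median 12.2%). The SD was 1.69 against 4.69 points (ratio 0.360, difference in deviation -1.58 points, linear model p = 0.0659, adjusted p = 0.366). Almost all of this width is in LH, with an SD of 6.36 points against 1.88 in LL, 1.86 in HL and 1.52 in HH. Both ends of the LH group were shallow: LH replicate 8 at 27.0% had a median of 123 reads and LH replicate 6 at 4.49% had 398.5, while the lowest depth in animals born from HF fed dams was 505 reads. With a minimum of 1000 reads the SD was 1.90 against 2.92 points and the linear model p was 0.385. Over run means the difference in deviation was -1.75 points (exact permutation p = 0.0455, adjusted p = 0.596). LH replicate 2 at 21.0%, with 31916.5 reads, and LH replicate 1 at 6.996%, with 15650 reads, stayed outside the range of the animals born from HF fed dams at high depth. At Rxrg_4, LH replicate 8 had 32.5% (Wilson 95% interval 24.9 to 41.2%, 123 reads) and LH replicate 2 had 23.0% (22.5 to 23.5%, 31931 reads).

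Of the 5 CpGs with the smallest p for the spread, Nfkb2_12 and Nfkb1_19 were wider in animals born from HF fed dams and the others narrower. Nfkb2_12 (chromosome 19, 46380134, intron) ran from 0.217% to 2.05% in animals born from HF fed dams and from 0.311% to 1.32% in animals born from LF fed dams, with SDs of 0.545 and 0.261 points (linear model p = 0.00700, adjusted p = 0.682). Nfkb1_19 (chromosome 3, 135353962, intron) had SDs of 0.334 and 0.159 points (p = 0.0284 in the linear model). Rxra_10 (chromosome 2, 27532334, intron), in the alpha retinoid X receptor, had SDs of 0.258 and 0.644 points (p = 0.00979 in the linear model), at a median of 222 reads. At Rxra_10, 15 of 19 animals born from HF fed dams and 11 of 19 animals born from LF fed dams had 0 methylated reads. A count of 0 at their 118 to 540 reads allows up to 0.556% to 2.54%, so the difference between these values was not detectable in a single animal. The median of Rxra_10 was 0 in HL, HH and LH, so there the deviation is the methylation value itself. The spread test at this CpG thus cannot tell spread from level. Lepr_18 had SDs of 0.774 and 1.13 points (p = 0.0174 in the linear model, adjusted p = 0.682). Over run means the exact permutation p was 0.0238 at Nfkb2_12, 0.0173 at Pck1_5, 0.00216 at Rxra_10, 0.113 at Lepr_18 and 0.0346 at Nfkb1_19, with an adjusted p of 0.274 at the lowest. The bases around the top CpG of each direction outside Pck1 are given from NCBIM37, plus strand, at chr19:46380120-46380149 and chr2:27532320-27532349, with CpGs in capitals and the named CpG at base 15.
Nfkb2_12: tccCGctgCGggggCGtggcccCGgCGtca
Rxra_10: caatggccCGgcCGCGgggctctcctccCG

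A single value for each animal sums up the spread over all loci: the deviation of its locus mean from the group median, divided by the SD of that locus within groups, averaged over the 19 loci. This overall spread ranged from 0.444 to 1.20 (median 0.576) in animals born from HF fed dams and from 0.443 to 1.26 (median 0.776) in animals born from LF fed dams. The groups overlap over their whole range, and HH replicate 1 is the highest animal born from an HF fed dam. Means were 0.627 ± 0.194 (SD, n = 19) and 0.773 ± 0.206 (SD, n = 20), a difference of -0.148 SD units (SE 0.0637, permutation test within post-weaning diet, 2-sided, p = 0.0252). The direction was the same after either weaning diet, with 0.578 in HL against 0.736 in LL and 0.671 in HH against 0.809 in LH. The difference was larger without HH replicate 1 (-0.183, permutation p = 0.00357). It did not pass 0.05 over run means (-0.109, exact permutation p = 0.108) or over CpGs in place of loci (-0.0639, permutation p = 0.0528). Leaving out LH replicate 10 (-0.121, permutation p = 0.0587), LL replicate 4 (-0.130, permutation p = 0.0511) or LL replicate 10 (-0.128, permutation p = 0.0533) also took it past 0.05.

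**Figure D5:**
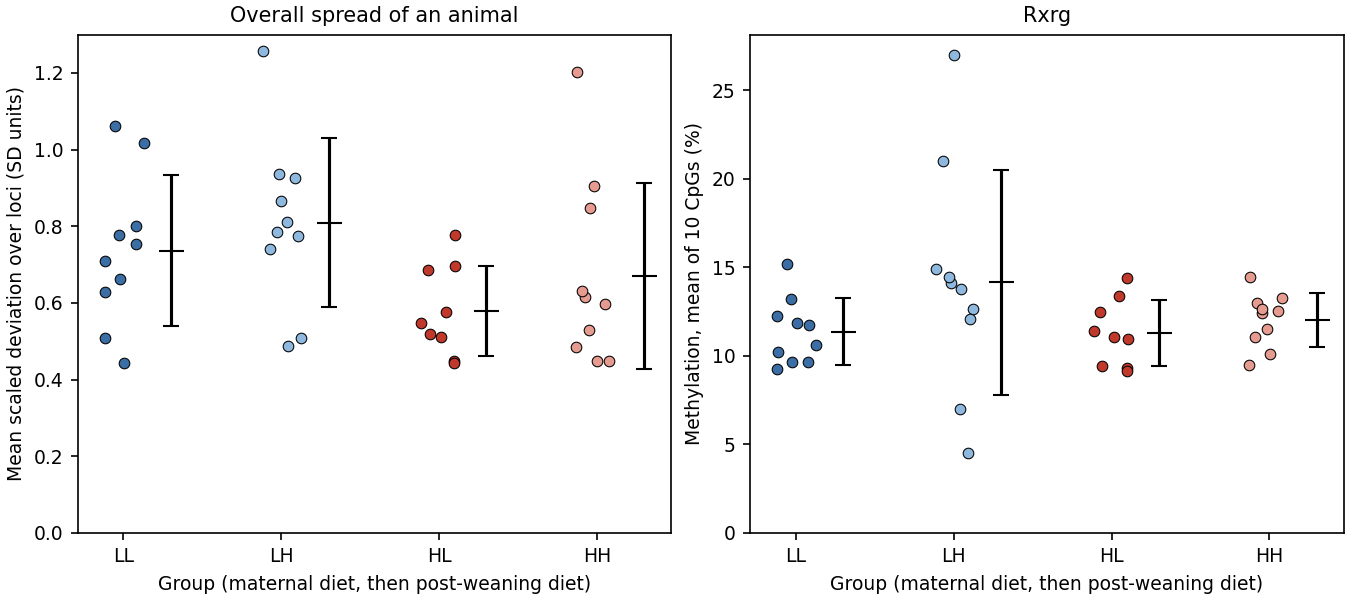
Overall spread of each animal over the 19 loci in SD units (left) and methylation at Rxrg in percent (right), by group, with the group mean and SD as bars beside the points. On the left HL and HH lie lower on average (0.578 and 0.671) than LL and LH (0.736 and 0.809), and on the right LH alone reaches from 4.49% to 27.0%.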

How the data were processed

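Liver DNA of 9-week-old male mice was bisulfite treated, amplified at chosen loci and sequenced. Per the labels, the reads were aligned and called with Bismark (version not given in the sources used here) on mm9. The authors deposited, for each animal and CpG, the count of reads in total and the count that were methylated, and also the methylated fraction, which equals the ratio of the counts within 5e-16. Every deposited total above 0 was at least 100 reads. All 300 positions are CpG cytosines in NCBIM37, used with GENCODE M1. CpGs within 1000 bp were taken as 1 locus, and all 22 primer pairs of the study matched one. The exact position of Lepr is not reported here.

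The filter of the study was used, 10 or more reads in 36 or more animals, and Igf2, Pparg, the 5′ UTR locus of Irs1 and 1 isolated CpG did not pass it. Means and absolute deviations from the group median were fitted by a linear model with post-weaning diet as covariate and F test, Benjamini-Hochberg adjusted at 0.05. Permutations (100000) kept post-weaning diet fixed. Runs of animal numbers (step of at most 3 and the same maternal diet) were compared by exact permutation. Scripts were tested on simulated data. The groups, lists and named genes were chosen with earlier results of these data known: all tested loci by role, the 3 loci and 5 CpGs with the smallest p for mean and for spread, imprinted loci, and the CpG with the largest difference. Alternatives are given in the closing section, among them limma on log2 ratios of the deposited counts with 1 read added to each. Python 3.11.15, numpy 2.4.6, pandas 2.3.3, scipy 1.17.1, statsmodels 0.14.6, matplotlib 3.10.9, R 4.3.3 and limma 3.58.1 were used.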

Additional observations from a re-analysis of the deposited data

Results flagged for a closer look

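In 80 sets of values (19 loci and the overall spread in each of 4 groups), 9 held an animal that stood apart from the rest of its group by Dixon's test, where chance gives about 1 in 20, or 4. At Ebp, HH replicate 1 had 20.8% against 0.607 to 1.03% in the other HH animals, at all 11 CpGs (15.4 to 30.5%) and at 186610 reads. The difference by maternal diet at Ebp rests on this animal. Also at Ebp, LH replicate 5 had 1.59% against 0.627 to 1.06%, but at a median of 112 reads. The SD ratio of HF to LF dams at Ebp was 0.709 without HH replicate 1 and 1.27 without both animals, computed after seeing the data. At Pck1, HL replicate 4 had 27.2% against 17.6 to 22.1% in the other HL animals, inside the range of both maternal diets. At Pck2, HH replicate 7 had 0.478% against 0.677 to 0.879%, and without it the SD ratio of HF to LF dams was 0.508, which was computed after seeing the data.

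The other animals that stood apart were LH replicate 7 at Irs1_a (91.7%, others 94.3 to 95.8%), HL replicate 4 at Nr1i2 (93.1%, others 94.0 to 94.7%), LL replicate 10 at Rxra (1.81%, others 0.409 to 0.953%, 222 reads), HH replicate 5 at Nr1h3 (2.54%, others 0.882 to 1.72%, 354 reads) and HL replicate 8 at Nr1h2 (1.05%, others 0.638 to 0.771%, 3240 reads). Why these animals differ was not tested.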

How the results depend on the processing

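No CpG or locus passed the adjusted threshold for the mean, apart from 1 CpG, Nr1h2_9, when HL replicate 6 or LH replicate 7 was left out (range 0 to 1 over the 39 animals left out). Measured from the group mean, 2 CpGs (Nfkb2_12 and Rxra_10) and 1 locus (Pck1) passed for the spread, with 31 CpGs and 5 loci at an unadjusted p under 0.05. Unadjusted counts for the mean were 14 CpGs and 1 locus at a minimum of 1000 reads, 14 CpGs if every animal had to have a value, and 4 loci by the quasi-binomial model. Unadjusted counts for the spread were 8 CpGs at 1000 reads, and 1 locus on the log2 scale, over run means or around the median of the maternal diet. That locus was Pck1 on the log2 scale (linear model p = 0.0390). It was Rxrg over run means (exact permutation p = 0.0455) and around the median of the maternal diet (linear model p = 0.0449). Fewer CpGs are tested at 1000 reads (207) and with a value in each of the 39 animals (163). Fewer loci are tested too (16 and 14), and at 1000 reads Plagl1 is not among them. For the other settings the cause was not tested. With animals left out in turn, unadjusted counts ranged from 23 to 34 CpGs and 2 to 4 loci for the mean, and from 6 to 20 CpGs and 1 to 4 loci for the spread. The overall spread ranged from -0.183 to -0.121, and it did not pass 0.05 over CpGs (-0.0639), over loci under 2% (-0.121), on the log2 scale (-0.113) or over run means (-0.109). Of 33 means and spreads followed (the means of all 19 loci and the CpGs and spreads named), 7 changed sign, all of them locus means that passed no threshold. Srebf1 differed by -0.0757 ranks, by -0.00522 in log odds by the quasi-binomial model and by -0.00130 points with reads pooled, Nr1i2 by 0.622 ranks and by 0.00820 points over run means, and Ebp by -0.78 ranks. Insig2 was 0.0116 on the log2 scale, Irs1 (as Irs1_a) was 0.0446 points over run means and Lepr was -0.0295 in log odds by the quasi-binomial model. With animals left out in turn, the difference ranged from -0.0390 to 1.08 points at Ebp, -0.0175 to 0.00351 at Insig2, -0.0542 to 0.153 at Lepr, -0.10 to 0.0323 at Nr1i2, -0.0661 to 0.0144 at Rxra and -0.00646 to 0.0116 at Srebf1. A minimum of 100 reads changed nothing, since no deposited value is lower. No paired analysis was possible because replicate numbers follow accession order and pair no animals.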
